A study of Mus musculus with 21 samples.

Results

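Scavenger receptors are surface and lysosomal proteins with which macrophages bind modified lipoproteins, fatty acids and the debris of dead cells. The 9 genes described here, Msr1, Cd36, Marco, Scarb1, Scarb2, Stab1, Colec12, Olr1 and Cd68, were taken by symbol from the 57180 genes of a count table of mouse brain macrophages. All 9 had a row in the table, and all 9 passed the filter on low counts by which 18867 genes were tested. The table covers RNA-seq of 21 libraries, each made from sorted brain cells. MG libraries held transplanted microglia (genotype Osb-GFP), and MLC libraries held cells of the same genotype that had arisen from transplanted monocytes, labelled monocyte-derived microglia. NoTx libraries held the microglia of mice without a transplant (genotype CX3CR1-CreER+/-; CSF1R fl/fl). Microglia are macrophages that live in the brain, and monocytes are blood cells that can enter tissue and become macrophages. There were 3 MG, 3 MLC and 2 NoTx libraries from mice given saline, and 4 MG, 6 MLC and 3 NoTx libraries taken 5 days after kainic acid, an agonist of glutamate receptors given to provoke seizures. Beyond adulthood the sources used here give no age at sorting, and the title of the study places the replacement in the neonatal period. CX3CR1-CreER places a tamoxifen-inducible Cre under the promoter of Cx3cr1, a gene of microglia and of some other myeloid cells, and the sources used here do not say whether Cre had been induced in the NoTx mice. The genotype of the transplant hosts and the markers used for the sort are also not given, so the share of host cells in an MG or MLC library is unknown.

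Class A receptors (Msr1, Marco, Colec12) carry a collagen-like stalk and bind polyanionic ligands such as oxidised lipoproteins, bacteria and protein aggregates. Class B receptors (Cd36, Scarb1, Scarb2) cross the membrane at both ends of the chain: Cd36 takes up long-chain fatty acids and oxidised low-density lipoprotein, Scarb1 exchanges cholesterol esters with high-density lipoprotein, and Scarb2 (also called LIMP-2) resides in lysosomes and carries an enzyme there. Cd68 is a heavily glycosylated lysosomal protein of macrophages, Olr1 (LOX-1) is a lectin-like receptor for oxidised lipoprotein best known from endothelium, and Stab1 (stabilin-1) is a large endocytic receptor of tissue macrophages and sinusoidal endothelium. In the brain such receptors are known for the clearance of myelin lipid, amyloid and dying cells.

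Several properties of the libraries touch every comparison. Batch 1 in the labels holds every seizure library and batch 2 every saline library, so that batch cannot be told apart from treatment. Genotype and transplantation cannot be told apart in any comparison with NoTx. Total counts ran from 36528922 to 50316320 in saline libraries and from 6571292 to 73842049 in seizure libraries. Counted at equal depth, 11560 to 11975 genes reached 10 counts in saline libraries and 8947 to 11672 in seizure libraries, and 3 seizure libraries (MG replicates 3 and 4, MLC replicate 5) held the fewest. The names of MLC seizure replicates 3 and 6 carry the code 11b and otherwise repeat the codes of replicates 2 and 4. The labels do not say whether these share animals. Xist exceeded 50 CPM (counts scaled to a common library size by TMM) in all 7 MG libraries and in 0 of the 9 MLC libraries, so Xist level and kind of cell cannot be told apart between MG and MLC. Y-linked transcripts summed to more than 50 CPM in 6 of the 7 MG libraries and in all 9 MLC libraries, so most MG libraries held both kinds of transcript. Among NoTx libraries Xist did so in 0 of 2 saline and 2 of 3 seizure libraries, and Y-linked transcripts in 2 of 2 and 1 of 3.

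Marker genes were read against the labels. The microglia marker P2ry12 lay between 11156.4 and 21860.7 CPM in MG and NoTx libraries and between 1633.8 and 2583.64 CPM in MLC libraries. Tmem119, another microglia marker, overlapped, with 518.387 to 10046.9 CPM in MG and NoTx and 180.394 to 3824.15 CPM in MLC. Sall1, which defines microglia of embryonic origin, had means of 342 and 243 CPM in MG (saline, seizure) and 1.49 and 4.71 CPM in MLC. The 7 markers of monocyte-derived brain macrophages (Ms4a7, Clec12a, Cybb, Apobec3, Cd38, Lyz2, H2-Ab1) summed to between 16429.7 and 44540.8 CPM in MLC and to between 631.275 and 3850.24 CPM elsewhere. The 7 border macrophage markers summed to between 1021.15 and 1626.25 CPM in MLC and to at most 227.463 CPM elsewhere, and in MLC Mrc1 held most of that sum (means of 979 and 842 CPM) while Lyve1 was at or near 0. F13a1 and Lyve1 instead had their highest means in NoTx after saline (129 and 2.10 CPM). Neutrophil markers reached 1336.85 CPM in NoTx saline replicate 2 and 553.762 CPM in NoTx seizure replicate 3, against at most 57.4 CPM in any other library. Astrocyte markers summed to between 294.729 and 569.153 CPM in MG and NoTx and to between 5.52193 and 117.351 CPM in MLC. Slc1a3 held most of that sum in MG and NoTx (group means of 381 to 469 CPM, against 8.73 and 11.2 in MLC), while Aldoc (10.5 CPM in MG and 22.3 in MLC after saline) and Gfap (3.08 and 7.99) did not follow it, and Aqp4 was below 0.4 CPM in every group mean. The highest sums of the other lists were these: endothelium at most 62.4 CPM, with Tek and Esam at 0 in every group, mural cells at most 3.80 CPM, neurons at most 42.8 CPM, platelets at most 34.0 CPM, oligodendrocytes at most 130.315 CPM, T and B cells at most 210.319 CPM with Cd3e at 0 in MG and NoTx, and red cells at most 950.674 CPM. The highest T and B cell sum was in MG after seizure, where Cd79b was the only 1 of the 6 genes with counts.

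Cd68 was by far the most abundant member, and Msr1 and Cd36 were the members that separated the cells by origin. On the scale of CPM per kilobase of exon, on which levels of different genes can be compared, the group means of Cd68 lay between 1670 and 2031, those of Scarb2 between 14.3 and 23.2, and those of Stab1 between 6.36 and 33.3. Cd36 reached 92.1 and 127 CPM per kilobase in MLC (saline, seizure) and between 0.350 and 4.15 in the other groups. Msr1 reached 39.2 and 36.5 CPM per kilobase in MLC and between 0.304 and 2.30 elsewhere. Scarb1 lay between 0.550 and 3.17, and Marco, Colec12 and Olr1 at or below 1.49 CPM per kilobase in every group. In MLC the order after saline was thus Cd68, Cd36, Msr1, Stab1 and Scarb2, with Msr1 within the spread of Stab1 (39.2 ± 0.513 and 33.3 ± 16.1 CPM per kilobase, SD, n = 3). After seizure the MLC mean of Scarb2 (22.8 ± 2.91 CPM per kilobase, n = 6) was above that of Stab1 (15.7 ± 6.98), but their libraries overlapped. In replicate 2 Stab1 was the higher, at 24.9 against 20.3 CPM per kilobase. In MG and NoTx it was Cd68 followed by Scarb2 and Stab1.

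Msr1 encodes the class A scavenger receptor SR-A, the founding member of the family, and lies on chromosome 8 from 39581685 to 39642673 on the minus strand (GRCm38). After saline it had 245, 249 and 252 CPM in the 3 MLC libraries, 11.02, 5.02 and 4.53 CPM in the MG libraries and 7.87 and 21.3 CPM in the NoTx libraries. After seizure the 6 MLC libraries ran from 123 to 359 CPM with a median of 226, the MG libraries had 5.89, 2.74, 0.663 and 0.286 CPM, and the NoTx libraries had 0.691, 0.547 and 4.54 CPM. Every MLC library was above every MG and NoTx library, the highest of which was NoTx saline replicate 2. MG and NoTx libraries overlapped with each other under both treatments. Msr1 was 36.3-fold higher in MLC than in MG after saline (log2 fold change 5.18, SE 0.91, edgeR adjusted p = 0.00157) and 102-fold higher after seizure (6.67, SE 0.84, edgeR adjusted p = 1.31e-05). Against NoTx the differences were 17.1-fold after saline (4.09, SE 1.03, edgeR adjusted p = 0.0493) and 121-fold after seizure (6.92, SE 0.97, edgeR adjusted p = 5.71e-05). After seizure the log2 fold change against MG was 7.73 without MG replicate 1 and 5.97 without the 3 low-complexity libraries, and that against NoTx was 8.57 without NoTx replicate 3, the library with neutrophil transcripts. In a bulk library, fewer cells of a type and less RNA per cell cannot be told apart.

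Cd36 encodes the fatty acid translocase and receptor for oxidised lipoprotein, and lies on chromosome 5 from 17781690 to 17888801 on the minus strand (GRCm38). After saline it had 342, 363 and 288 CPM in MLC, 7.27, 10.4 and 3.30 CPM in MG, and 8.57 and 9.28 CPM in NoTx. After seizure the 6 MLC libraries ran from 206 to 635 CPM with a median of 475, the MG libraries had 26.6, 0.374, 32.3 and 0.349 CPM, and the NoTx libraries had 1.38, 1.53 and 0.858 CPM. MLC again stood above all other libraries, and within MG after seizure 2 libraries were high and 2 were close to the floor of 3 counts. Cd36 was 47.2-fold higher in MLC than in MG after saline (log2 fold change 5.56, SE 1.10, edgeR adjusted p = 0.00532) and 30.5-fold higher after seizure (4.93, SE 0.90, edgeR adjusted p = 0.00119). It was 37.0-fold higher than in NoTx after saline (5.21, SE 1.29, edgeR adjusted p = 0.0454) and 359-fold higher after seizure (8.49, SE 1.23, edgeR adjusted p = 8.86e-05). Without MG seizure replicate 3 the log2 fold change against MG after seizure was 5.66.

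These were the only members called by edgeR in these comparisons: 2 of 9 members after saline and 2 of the 8 with counts after seizure were higher in MLC than in MG, and 0 were lower. Of all genes tested, 1.58% were called after saline (0.779% higher in MLC) and 5.88% after seizure (2.51% higher in MLC). Against NoTx the same counts held, 2 of 9 and 2 of 8 higher, where 1.26% of all genes were called after saline (0.445% higher) and 6.16% after seizure (2.55% higher). The median log2 fold change of the members was 0.77 (saline) and 0.64 (seizure) against MG, and 1.39 and 0.11 against NoTx, where the median of all genes was 0.00, 0.00, 0.08 and 0.00. After seizure DESeq2 called 4 members higher in MLC than in MG, adding Stab1 and Colec12, and 3 against NoTx, adding Colec12, where it called 2568 and 2827 genes in all. The comparisons with MG and with NoTx share the MLC libraries. The calls against NoTx after saline rest on 5 libraries, and both Msr1 and Cd36 lost them when any 1 of these was left out (edgeR adjusted p from 0.0762 to 0.591). Without NoTx saline replicate 2, the library with neutrophil transcripts, the Msr1 difference was 4.98 and that of Cd36 5.26 on the log2 scale, with edgeR adjusted p of 0.263 and 0.518. Against MG after saline the Cd36 call was lost without MG saline replicate 3 (edgeR adjusted p = 0.0555), at a log2 fold change of 5.24. The summed markers of monocyte-derived brain macrophages and the border macrophage marker Mrc1 were higher in every MLC library, as Msr1 and Cd36 were. Not all markers followed: Apobec3 overlapped after seizure (178 to 422 CPM in MLC, 132 to 235 in MG). Among border macrophage markers, F13a1 had means of 129 CPM in NoTx and 12.4 in MLC after saline. The part of these markers in the differences was not tested. Xist differed between MG and MLC, and was over 50 CPM in 0 libraries of MLC or NoTx after saline. The part of sex in the Msr1 and Cd36 differences was not tested.

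**Figure D1:**
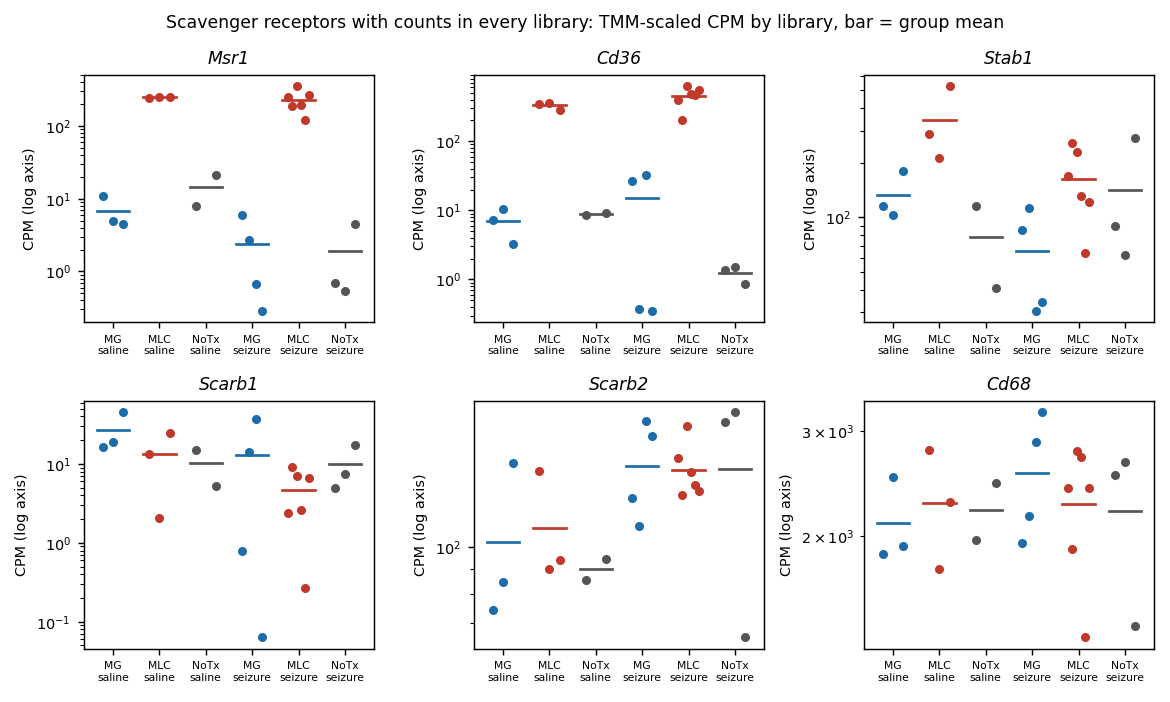
TMM-scaled CPM (log axis) of the 6 members with counts in every library, by group, with 1 point per library and a bar at the group mean. All MLC points of Msr1 and Cd36 lie above all MG and NoTx points, while the groups of Scarb2 and Cd68 overlap.

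The RefSeq promoter table held windows for Cd36, Cd68, Marco, Olr1, Scarb2 and Stab1, 6 of the 9 members. Cd36 and Cd68 are shown side by side because, of the 5 members with an average log2 CPM over 4, they had the highest and lowest standard deviation of log2 CPM over the libraries (3.78 and 0.33). Each is the 250 bases before the gene's RefSeq start, on the minus strand of GRCm38.p6 and written 5' to 3', at chr5:17835897-17836146 and chr11:69666171-69666420. The Cd36 window lies inside the annotated gene (17781690 to 17888801), so its start is not the outermost, and the sequence before the outermost start was not searched. The deposited counts were made on GRCm39, so these coordinates belong to the reference and not to the count table. Capitals mark matches, on either strand, to GGAAGT (core of the PU.1 site) or TGANTCA (AP-1 site), and CACGTG (the E-box bound by TFEB and TFE3) was searched as well.
Cd36: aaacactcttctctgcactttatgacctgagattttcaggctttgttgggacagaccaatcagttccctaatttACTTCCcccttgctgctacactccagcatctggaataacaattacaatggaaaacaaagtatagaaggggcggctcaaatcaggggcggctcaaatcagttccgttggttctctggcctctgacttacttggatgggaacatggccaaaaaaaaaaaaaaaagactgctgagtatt
Cd68: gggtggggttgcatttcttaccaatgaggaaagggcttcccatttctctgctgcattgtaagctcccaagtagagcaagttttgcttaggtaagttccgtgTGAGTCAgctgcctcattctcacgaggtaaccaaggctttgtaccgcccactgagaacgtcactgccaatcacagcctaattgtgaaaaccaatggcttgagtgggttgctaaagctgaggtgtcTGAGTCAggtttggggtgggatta
Cd36 held 1 match to GGAAGT, read on the reverse strand, Cd68 held 2 matches to TGANTCA, and neither held CACGTG. Among 32851 promoter windows of the same length, 19.7% held GGAAGT, 6.75% held TGANTCA and 6.02% held CACGTG. Olr1 also held 1 match to TGANTCA, and Marco, Scarb2 and Stab1 held none of the 3 motifs. The Scarb2 window (92505658 to 92505907) also lies inside its annotated gene (92441314 to 92506833), so the sequence before the outermost start was not searched there either. The marked matches do not overlap one another, and a window without a match says only that these letters are not in it.

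In the seizure group of MG the Cd36 level split the libraries. Replicates 1 and 3 had 26.6 and 32.3 CPM, and replicates 2 and 4 had 0.374 and 0.349 CPM, from 3 and 11 counts. The library names of replicates 1 and 3 carry an F and those of 2 and 4 an M. Xist and Y-linked transcripts each exceeded 50 CPM in all 4 of these libraries, so at that limit they did not follow the letters. H2-Aa, Cd69 and Cd74 are the genes with the profile most similar to Cd36 over these same 21 libraries, so that choice in part fixed how they divide the MG libraries. H2-Aa, an antigen-presenting chain, had 348 and 736 CPM against 3.24 and 5.02, Cd74, its invariant chain, 4550 and 9773 CPM against 184 and 255, and H2-Ab1 1202 and 2676 CPM against 57.6 and 64.6. Cd69, a leukocyte activation antigen, had 3.73 and 10.03 CPM against 0.125 and 0.0953. H2-Ab1 is also among the 7 markers of monocyte-derived brain macrophages, and 4 of these 7 were higher in both replicates 1 and 3: H2-Ab1, Lyz2 (624 and 654 CPM against 498 and 498), Cybb (34.7 and 24.5 against 21.1 and 12.2) and Cd38, which stayed below 0.2 CPM. The other 3 were not: Clec12a had 0.295 and 0.902 CPM against 0.374 and 0.413, Ms4a7 1.08 and 15.3 against 1.99 and 3.02, and Apobec3 140 and 167 against 132 and 235. The order of the Cd38 values carries little weight, as 3 counts correspond to 0.295, 0.374, 0.0796 and 0.0953 CPM in MG seizure replicates 1 to 4. The share of all genes that divide these libraries in the same way was not counted. Msr1 was not split along these lines either, with 5.89 and 0.663 CPM in replicates 1 and 3 and 2.74 and 0.286 CPM in replicates 2 and 4. The part of other cells, of sex or of MHC class II expression in these Cd36 values was not tested. Between MG and NoTx after seizure the Cd36 log2 fold change was 3.56 (SE 1.00, edgeR adjusted p = 0.246), which missed the limit, with overlapping groups. DESeq2 gave an adjusted p of 0.00996 for that difference, and the edgeR refits ranged from 0.0575 to 1.00.

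**Figure D2:**
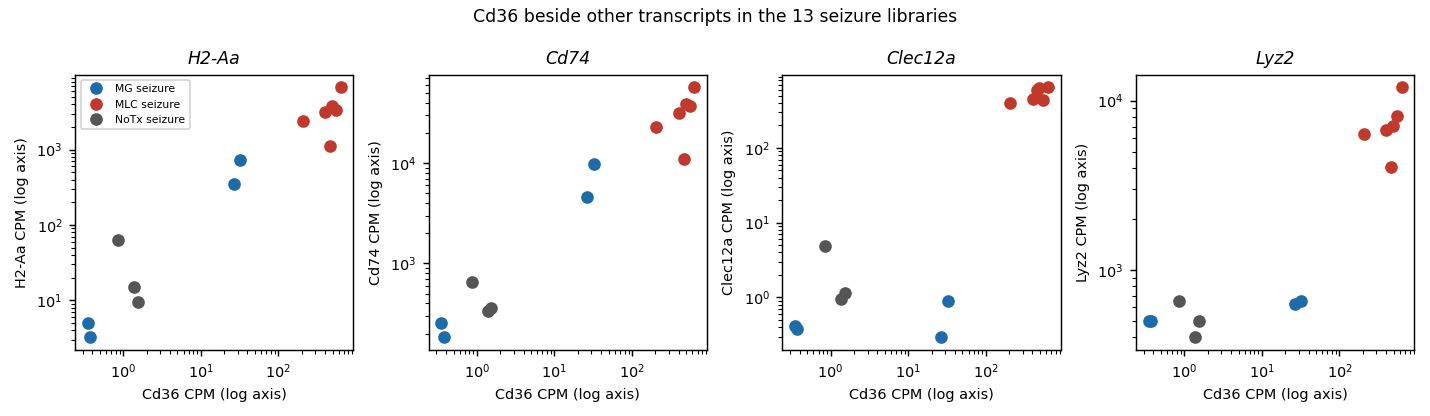
CPM of Cd36 (x, log axis) against H2-Aa, Cd74, Clec12a and Lyz2 (y, log axis) in the 13 seizure libraries, 1 point per library. Both MG libraries with high Cd36 also have the higher H2-Aa, Cd74 (both chosen by likeness to Cd36) and Lyz2 of the 4 MG libraries, while Clec12a is below 1 CPM in all 4.

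Stab1 differed less and with more spread. It lies on chromosome 14 from 31139013 to 31168641 on the minus strand (GRCm38), and 112 of its exonic bases overlap Nt5dc2 on the opposite strand. Whether counting used strand is not given, so reads from these bases could belong to either gene. After saline Stab1 had 286, 213 and 529 CPM in MLC, 115, 103 and 179 CPM in MG, and 115 and 40.9 CPM in NoTx, and MLC did not overlap with the others. After seizure MLC ran from 63.5 to 256 CPM with a median of 150, MG had 84.7, 112, 30.6 and 34.2 CPM, and NoTx had 90.1, 62.4 and 273 CPM, so that all 3 groups overlapped. The NoTx value of 273 CPM came from replicate 3, the library with neutrophil transcripts, whose part in it was not tested. The log2 fold changes of MLC against MG were 1.37 (SE 0.60, edgeR adjusted p = 0.517) and 1.31 (SE 0.49, edgeR adjusted p = 0.110), and against NoTx 2.14 (SE 0.71, edgeR adjusted p = 0.239) and 0.19 (SE 0.51, edgeR adjusted p = 0.889). None passed, and the 95% intervals against MG ran from 0.13 to 2.61 and from 0.30 to 2.32. After seizure DESeq2 called Stab1 higher in MLC than in MG (adjusted p = 0.0489), where the edgeR refits ranged from 0.0519 to 0.363.

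Colec12, a class A collectin of endothelium and stroma, was scarce. In MLC it had 2.95, 0.351 and 4.43 CPM after saline, and after seizure 0, 3.50, 9.18, 0.0863, 8.53 and 0.766 CPM. MG stayed at or below 0.286 CPM in all 7 libraries and NoTx at or below 0.638 CPM in all 5. Summed counts were 384 and 414 in MLC (saline, seizure) against 16 and 11 in MG. With single libraries from 0 to 9.18 CPM within MLC, the log2 fold changes against MG were 4.33 (SE 2.16, edgeR adjusted p = 0.661) and 5.02 (SE 1.91, edgeR adjusted p = 0.118). DESeq2 called the seizure difference (adjusted p = 0.00383), and the edgeR refits ranged from 0.100 to 0.361. Olr1 was at most 1.37 CPM in any library, and 9 of 13 seizure libraries had no count of it. It was listed at 0 in 3 of 4 MG, 4 of 6 MLC and 2 of 3 NoTx seizure libraries, where 3 counts correspond to 0.0456 to 0.417 CPM per library, and it had between 2 and 60 counts in each saline library.

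Scarb1, the receptor for high-density lipoprotein, varied widely between replicates. After saline it had 16.3, 18.9 and 45.5 CPM in MG, 13.5, 2.05 and 25.0 CPM in MLC, and 15.1 and 5.24 CPM in NoTx. After seizure MG had 0.786, 14.3, 37.5 and 0.0635 CPM, MLC ran from 0.271 to 9.16 CPM with a median of 4.62, and NoTx had 4.91, 7.41 and 17.6 CPM. The range within MG after seizure spanned all other seizure values. Its log2 fold changes of MLC against MG were -0.99 (SE 1.35, edgeR adjusted p = 1) and -1.49 (SE 1.05, edgeR adjusted p = 0.411).

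The lysosomal members Scarb2 and Cd68 showed no difference that passed the test. Scarb2 after saline had 74.4, 84.6 and 148 CPM in MG, 142, 90.3 and 94.1 CPM in MLC, and 85.5 and 94.4 CPM in NoTx. After seizure it had 126, 110, 180 and 168 CPM in MG, 128 to 176 CPM with a median of 138 in MLC, and 179, 188 and 65.5 CPM in NoTx. Within each treatment all groups overlapped, and the lowest value of all was in NoTx seizure replicate 3. The difference of MLC from MG was 0.09 on the log2 scale after saline (95% interval -0.66 to 0.84) and -0.03 after seizure (-0.62 to 0.57), the latter positive at 0.17 with RLE scaling and at 0.41 without the 3 low-complexity libraries. Cd68 after saline had 1864, 2511 and 1924 CPM in MG, 2791, 1759 and 2277 CPM in MLC, and 1966 and 2454 CPM in NoTx. After seizure it had 1943, 2158, 2879 and 3231 CPM in MG, 1351 to 2782 CPM with a median of 2407 in MLC, and 2537, 2665 and 1409 CPM in NoTx. Again all groups of a treatment overlapped, and the Cd68 difference of MLC from MG was 0.12 after saline (95% interval -0.52 to 0.75) and -0.18 after seizure (-0.68 to 0.33), the latter 0.01 with RLE scaling and 0.37 without the 3 low-complexity libraries. The coefficient of variation of Cd68 within groups was 15.6% to 31.3%, against 1.31% to 118% for Msr1. Cd68, often used as a marker of phagocytic microglia, thus overlapped between groups that Msr1 and Cd36 separated.

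**Figure D3:**
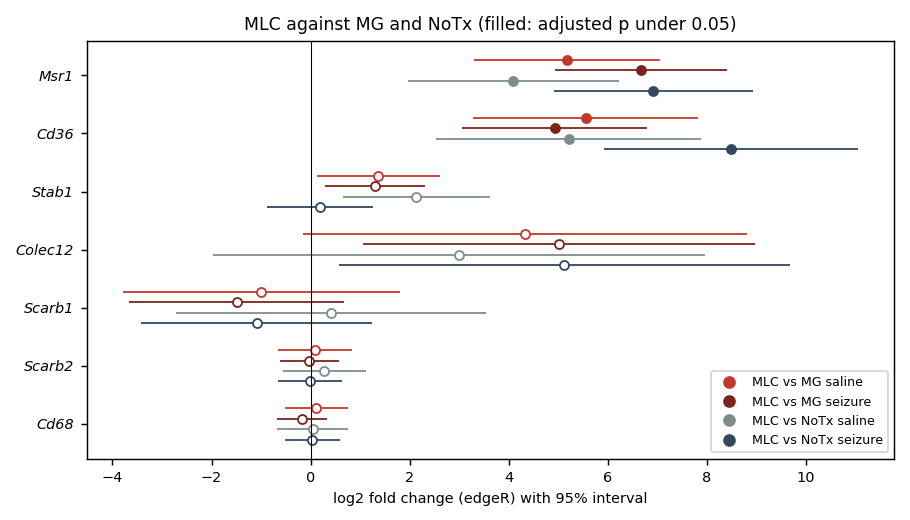
Log2 fold change (edgeR) of MLC against MG and NoTx after saline and after seizure for 7 members, with 95% intervals and filled points where the adjusted p was under 0.05. Msr1 and Cd36 are filled in all 4 comparisons, and no other member is.

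Between the microglia of the 2 sources, 0 of 9 members were called after saline and 0 of the 8 with counts after seizure, where 0.0530% and 0.0742% of all genes were called. At an unadjusted p under 0.05 the counts were 0 and 1, and DESeq2 likewise called 0 and 1, the latter being Cd36. Of all 18867 genes, 641 and 2085 (11.1%) had an unadjusted p under 0.05, so 1 of 8 is near the latter share, and DESeq2 called 104 and 670. Msr1 differed between MG and NoTx by -1.09 after saline (SE 0.84, 95% interval -2.83 to 0.66) and by 0.25 after seizure (SE 0.76, -1.33 to 1.84) on the log2 scale. Cd36 differed by -0.35 after saline (SE 1.01, -2.44 to 1.74). Ordered by group mean, Msr1 ran from MLC saline and MLC seizure (249 ± 3.25 and 232 ± 81.3 CPM, SD, n = 3 and 6), which overlapped, to NoTx saline (14.6 ± 9.47, n = 2), MG saline (6.85 ± 3.61, n = 3), MG seizure (2.396 ± 2.57, n = 4) and NoTx seizure (1.93 ± 2.27, n = 3). Of these 4 lower groups, neighbours in the order overlapped. Cd36 ran from MLC seizure (457 ± 147 CPM, n = 6) and MLC saline (331 ± 38.7, n = 3), which overlapped, to MG seizure (14.9 ± 17.0, n = 4), NoTx saline (8.93 ± 0.500, n = 2), MG saline (6.997 ± 3.57, n = 3) and NoTx seizure (1.26 ± 0.355, n = 3), the last with no overlap with MG or NoTx saline.

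No member was called by edgeR between seizure and saline, and DESeq2 called 1, Marco, in each of the 3 kinds of cell. In MG 0.0371% of all genes were called, in MLC 0.00% and in NoTx 0.106%. The counts of members at an unadjusted p under 0.05 were 2, 2 and 3 of 9, where 11.8%, 11.9% and 7.35% of all genes were under it. In MLC, where 0 genes were called by edgeR, 2236 genes had an unadjusted p under 0.05 and DESeq2 called 139 genes. Msr1 moved by -0.10 in MLC (SE 0.66, edgeR adjusted p = 0.989), by -1.59 in MG (SE 0.74, edgeR adjusted p = 0.418) and by -2.93 in NoTx (SE 0.88, edgeR adjusted p = 0.540), all on the log2 scale. In NoTx the 3 seizure libraries lay below the 2 saline libraries for Msr1, Cd36, Marco and Olr1. The share of all genes without overlap there was not counted, and so few libraries often separate by chance. Cd36 differed in NoTx by -2.81 (SE 1.05, edgeR adjusted p = 0.675). Cd36 differed by 0.47 in MLC (SE 0.79, edgeR adjusted p = 0.913) and by 1.10 in MG (SE 0.87, edgeR adjusted p = 0.667). Stab1 differed by -1.08 in MLC (SE 0.49, edgeR adjusted p = 0.398) and by -1.02 in MG (SE 0.55, edgeR adjusted p = 0.463). The median log2 fold change of members was -1.02 in MG, -0.10 in MLC and -1.62 in NoTx, against -0.08, -0.06 and 0.00 over all genes, also with Marco set at its bound. Whether seizure acted differently on MLC and MG was tested as an interaction: 0.00% of all genes and 0 of 8 members were called (1036 genes and 0 members at an unadjusted p under 0.05, and 145 genes and 0 members with DESeq2). The interaction was 1.49 for Msr1 (SE 1.00, 95% interval -0.59 to 3.57) and -0.63 for Cd36 (SE 1.15, -3.01 to 1.76).

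Marco, a class A receptor for bacteria and particles, was counted in every saline library and in no seizure library. After saline it had 2.86, 1.39 and 0.777 CPM in MG, 1.91, 1.16 and 5.54 CPM in MLC, and 1.09 and 1.09 CPM in NoTx, from 28 to 294 counts per library. All 13 seizure libraries had 0 counts. With 3 counts over the group as the floor, Marco was at least 48.9-fold lower after seizure in MG, at least 80.8-fold lower in MLC and at least 36.3-fold lower in NoTx. These bounds rest on single libraries: in MG the bound was 31.6-fold without saline replicate 1, and 27.8-fold and 31.3-fold without seizure replicates 3 and 4. In MLC it was 43.2-fold without saline replicate 3 and 48.4-fold without seizure replicate 3, and in NoTx 12.4-fold without seizure replicate 2. The edgeR adjusted p were 0.380, 0.304 and 0.647, over the limit, while DESeq2 gave 0.00025, 1.01e-05 and 0.00673. Over the edgeR refits the adjusted p ran from 0.169 to 0.889 in MG, from 0.133 to 0.925 in MLC and from 0.343 to 1.00 in NoTx. All 13 libraries at 0 were batch 1 and all 8 with counts batch 2, so that batch cannot be told apart from treatment here, and seizure libraries also held fewer genes at equal depth.

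**Figure D4:**
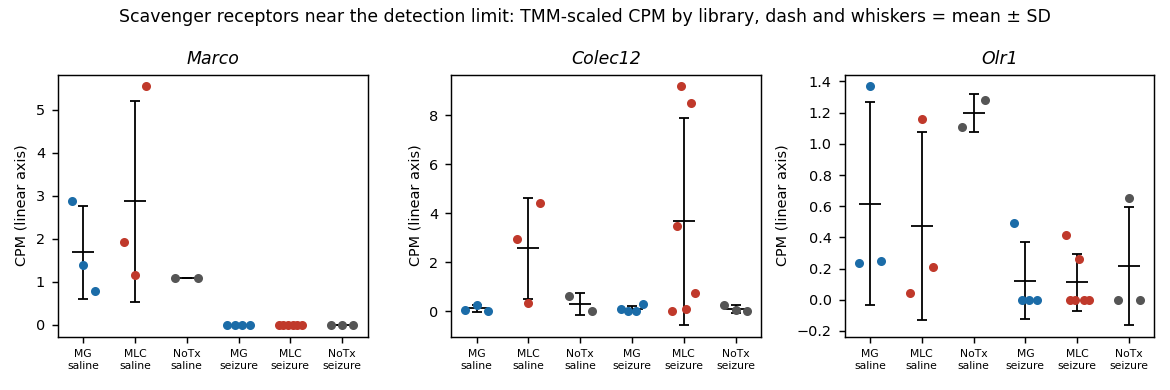
TMM-scaled CPM (linear axis) of Marco, Colec12 and Olr1 by group, with 1 point per library, a dash at the mean and whiskers of 1 SD. Marco is at 0 in all 13 seizure libraries, and 6 of the 9 MLC libraries lie above 0.638 CPM of Colec12, the highest value in MG or NoTx.

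Other genes of uptake and lipid handling were counted in 6 lists written from general knowledge, with earlier results of these data known. Their counts are of edgeR calls, to be read against the 1.58% (saline) and 5.88% (seizure) of all genes called between MLC and MG. Among the 10 tested genes of other scavenger receptor classes, 3 were higher in MLC after saline, 4 after seizure and 0 lower, with a median log2 fold change of 1.85 and 1.76 against 0.00 over all genes. Mrc1, the mannose receptor, which is also among the border macrophage markers, had 979 ± 278 CPM in MLC and 18.5 ± 10.1 CPM in MG after saline (log2 fold change 5.73, SE 0.83, edgeR adjusted p = 0.000177, n = 3 and 3). Cxcl16, a membrane-bound chemokine that binds oxidised lipoprotein, had 713 ± 215 against 97.6 ± 31.3 CPM (2.87, SE 0.49, edgeR adjusted p = 0.00132). Clec7a (dectin-1), a receptor for beta-glucan, had 196 ± 58.8 against 53.4 ± 12.4 CPM (1.87, SE 0.44, edgeR adjusted p = 0.0290). All 3 were also higher after seizure, with log2 fold changes of 5.23, 2.26 and 1.27. Cd163, the haemoglobin scavenger receptor, had 6.00 ± 5.63 CPM in MLC and 0 counts in MG after seizure, at least 175-fold higher (edgeR adjusted p = 0.00360), and missed the limit without the 3 low-complexity libraries (edgeR adjusted p = 0.0510). Mrc1 and Cxcl16 kept both calls in every refit, with Mrc1 at 6.00 on the log2 scale without MG seizure replicate 3. Clec7a lost its call after saline without any 1 MG library and without MLC replicate 1 or 3 (edgeR adjusted p up to 0.160). After seizure it lost it without MG replicate 1 or 2 or MLC replicate 5, with only the groups compared and with the replicate block (up to 0.104), and its value was 1.93 without the low-complexity libraries. The 2 most abundant genes of that list that were not called, Lrp1 and Cd44, had log2 fold changes of -0.69 and 1.92 after saline. Clec7a was also the 1 gene of these lists called between MG and NoTx, with 77.6 ± 36.5 against 14.9 ± 7.49 CPM after seizure (2.39, SE 0.44, edgeR adjusted p = 0.0367). This call was lost in the fit of only the groups compared, which called 0 genes there, and its other refits were not examined.

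Of 22 tested genes that handle lipid after uptake, 2 were higher in MLC than in MG after saline, and 4 were higher and 1 lower after seizure (median log2 fold change 0.56 and 0.70). Apoe, the lipoprotein that carries effluxed cholesterol, had 26388 ± 18105 CPM in MLC and 353 ± 107 CPM in MG after seizure (6.23, SE 0.98, edgeR adjusted p = 0.000216), and 24522 ± 32871 against 224 ± 291 CPM after saline (6.78, SE 1.18, edgeR adjusted p = 0.00143). Soat1, which esterifies cholesterol for storage, was 1.18 higher after saline on the log2 scale (SE 0.28, edgeR adjusted p = 0.0327). After seizure Plin2, a coat protein of lipid droplets (1.496, SE 0.35, edgeR adjusted p = 0.0106), Abca1, a cholesterol exporter (1.38, SE 0.30, edgeR adjusted p = 0.00599), and Ch25h, which makes 25-hydroxycholesterol (5.10, SE 1.31, edgeR adjusted p = 0.0220), were higher. Mgll, which hydrolyses monoacylglycerol, was lower, with 2.92 ± 3.82 against 23.3 ± 16.8 CPM (-2.98, SE 0.81, edgeR adjusted p = 0.0301). Apoe, Plin2 and Abca1 kept these calls in every refit, but the Apoe log2 fold change was 4.68 without MLC saline replicate 1 and 8.80 without MG saline replicate 3, and after seizure 6.86 without the low-complexity libraries. Soat1 lost its call without any 1 MG library, without MLC replicate 1 or 2 and without the low-count filter (edgeR adjusted p up to 0.128). Ch25h lost it without MG replicate 3 or 4, without the filter, with the replicate block, without the 11b libraries and without the low-complexity libraries (up to 0.147), and its value was 8.45 without MG replicate 1. Mgll lost it without MG replicate 1 or 2 or MLC replicate 1, 3 or 5, with only the groups compared and without the 11b libraries (up to 0.232), and its value was -3.67 without MLC replicate 4 and -4.42 with the replicate block. DESeq2 called 4 genes of the list after saline and 10 after seizure. Abcg1 and Npc2, the most abundant genes of the list that were not called, had log2 fold changes of 0.73 and -0.01 after saline.

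The 8 tested lipoprotein receptors held 0 edgeR calls under either treatment (DESeq2 called 3 after seizure, edgeR 2 after saline with only the groups compared and 1 after seizure without the low-complexity libraries), with medians of 0.05 and 0.94. The most abundant, Lrp6 and Sorl1, had log2 fold changes of 1.53 and 1.09 after saline. Of the 11 tested co-receptors and signalling partners of Cd36, 1 was lower after saline and 2 after seizure, and 0 were higher (medians -0.49 and -0.52). Cd9, a tetraspanin found in complex with Cd36, had 491 ± 107 CPM in MLC and 1912 ± 283 CPM in MG after saline (-1.96, SE 0.32, edgeR adjusted p = 0.000730) and was 2.05 lower after seizure on the log2 scale, and Cd81, another tetraspanin, was lower after seizure (-1.60, SE 0.39, edgeR adjusted p = 0.0148). Fcer1g, a signalling adaptor, and Lyn, a Src-family kinase, the most abundant that were not called, had log2 fold changes of 0.19 and -0.49 after saline. Among 12 lysosomal membrane proteins and partners, 1 was higher after saline, and 1 higher and 1 lower after seizure (medians 0.15 and 0.16). Cd63, a lysosomal tetraspanin, was higher under both (1.22, SE 0.29, edgeR adjusted p = 0.0324, and 0.93, SE 0.24, edgeR adjusted p = 0.0201), and Lgmn, a lysosomal protease, was lower after seizure (-1.32, SE 0.34, edgeR adjusted p = 0.0227). Ctsd and Ctsb, abundant lysosomal proteases, were not called, with values of -0.52 and 0.15 after saline. Of 12 transcription factors, 0 were called after saline and 1 after seizure, Nfe2l2 (NRF2), with 571 ± 76.6 against 311 ± 77.0 CPM (0.87, SE 0.22, edgeR adjusted p = 0.0188), and the medians were -0.13 and 0.20. Maf had a value of 0.57 after saline, and Pparg, an activator of Cd36 in other macrophages, was too low to be tested. No list held an edgeR call in the interaction. Cd9 kept both calls in every refit, at -1.41 after seizure without the low-complexity libraries. Cd81 lost its call without MG seizure replicate 3, without the low-count filter and with only the groups compared (edgeR adjusted p up to 0.123), and Nfe2l2 without MG seizure replicate 2 or 3 and without the low-complexity libraries (up to 0.0751). Lgmn lost it without MG replicate 2 or 3 or MLC replicate 4 or 6, without the filter, with only the groups compared and without the 11b libraries (up to 0.162), and Cd63 without any 1 saline library but MLC replicate 2 and without MG seizure replicate 1, 2 or 3 or the 11b libraries (edgeR adjusted p up to 0.180 and 0.0685). After seizure DESeq2 called 3 Cd36 partners, 4 lysosomal genes and 2 transcription factors.

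**Figure D5:**
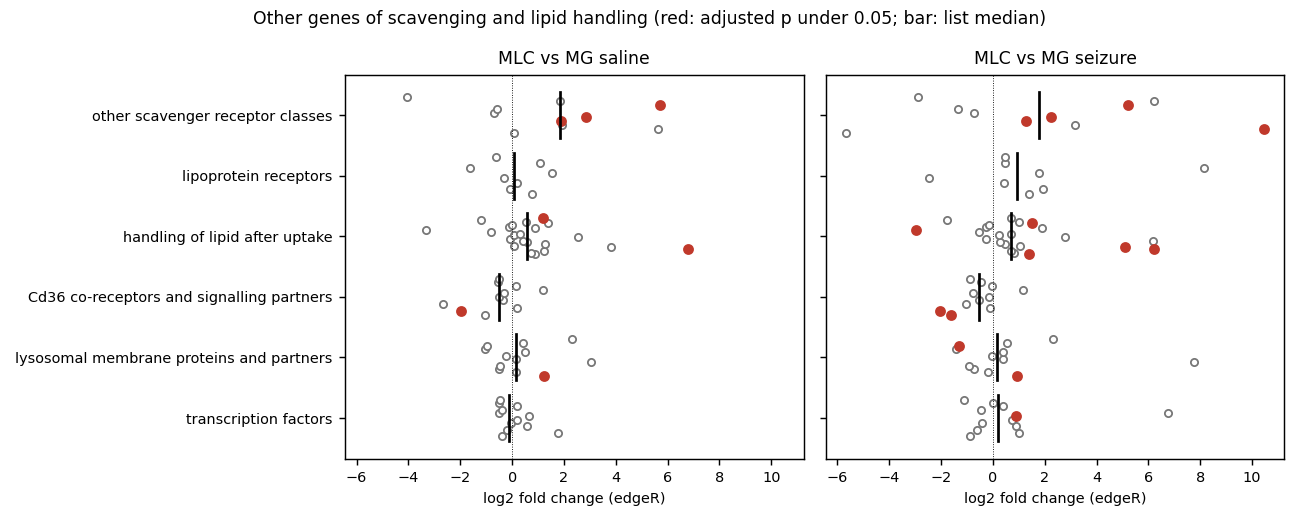
Log2 fold change (edgeR) of MLC against MG after saline (left) and after seizure (right) for the genes of 6 lists, 1 point per gene, filled red where the adjusted p was under 0.05, with a bar at the list median. Calls above 0 stand mostly among other scavenger receptors and lipid handling, and those of the Cd36 partners are below 0. The rightmost point is Cd163, whose fitted value against MG libraries at 0 is no bound.

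For each of the 5 members whose average log2 CPM was 4 or more, the 3 genes with the most similar profile were found among 6851 genes of that abundance by the root-mean-square difference of log2 CPM, centred per gene, over the 21 libraries. Nearest to Msr1 were Slamf7, a receptor of activated leukocytes (0.98), Mrc1 (1.13) and Cyp4f18, a leukotriene-metabolising P450 of myeloid cells (1.14), where Msr1 itself had a standard deviation of 3.49. Nearest to Cd36 were H2-Aa (0.93), Cd69 (1.09) and Cd74 (1.16), at a standard deviation of 3.78. The 3 genes named for Msr1 and for Cd36 were not the same, with an MHC class II chain and its invariant chain beside Cd36 and the mannose receptor beside Msr1. Genes beyond the first 3 were not compared, so this does not show that the profiles of Msr1 and Cd36 differ. Stab1, with a standard deviation of 1.07, was nearest to Cyp27a1 (0.60), a cholesterol hydroxylase, Pde4b (0.62) and Acsl1 (0.64), a long-chain acyl-CoA synthetase. Cd68 (0.33) was nearest to Npc2 (0.16), a lysosomal cholesterol carrier, Ebp (0.18) and Ppt1 (0.19), a lysosomal thioesterase. Scarb2 (0.45) was nearest to Crlf3 (0.21), Dnajb9 (0.24) and Ntan1 (0.28). These values describe the 21 libraries, which share groups and batches, and carry no test.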

How the data were processed

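The authors deposited a table of estimated counts per gene, which were rounded to whole numbers before testing (28.2% to 45.4% of a library's values above 0 were not whole). Per the submitters' processing notes, trimming was by Trim Galore 0.6.7, and reads were aligned with STAR 2.7.10a to GRCm39 and counted with featureCounts (Subread 2.4.5). What made the counts fractional, and whether counting used strand, are not given in the sources used here. Per the labels' protocols, RNA of sorted cells was isolated with the RNeasy micro kit, and libraries were made with a low-input kit. No molecular identifiers are named, so a floor of 3 counts covers only the error of counting. Samples are labelled biological replicates, and the spread between these is what the p-values measure.

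All 21 libraries entered an edgeR 4.0.16 quasi-likelihood fit (R 4.3.3, limma 3.58.1) with TMM scaling, robust estimation, filtering by group and 6 group means. The Benjamini-Hochberg adjustment ran over 18867 genes within each of 10 comparisons, with 0.05 as the limit, and 46.5% of genes were at 0 in all libraries. CPM are TMM-scaled, given as mean and SD. Intervals are 95%, and the SE is the absolute log2 fold change over the root of the F statistic. Exon lengths and positions came from GENCODE on GRCm38, matched by gene ID. Refits used DESeq2 1.42.0, RLE scaling, all genes without the filter, a fit of the compared groups alone, a block for replicate number, and libraries left out. The edgeR step was tested on simulated data.

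Members, lists and comparisons were chosen with earlier results of these data known. By the naming rule, all members were named, and from each list the genes called between MLC and MG plus the 2 most abundant not called, and the 3 most similar genes per member. The 6 pathway and 12 marker lists were written from general knowledge. Fcrls was not matched by symbol and is not analysed here, and some list genes are not reported here.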

Additional observations from a re-analysis of the deposited data

Results flagged for a closer look

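Olr1 in the MG seizure group had 1 library apart from the other 3: replicate 1 at 0.491 CPM (5 counts), with the other libraries at 0. Of 16 groups of 4 or more libraries examined for the members, 1 was flagged in this way. Chance flags about 1 group in 20 where values are normally distributed. That rate does not apply to this group, because with the other 3 libraries at 0 any count in replicate 1 would be flagged.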

How the results depend on the processing

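Of 108 refits of Msr1 and Cd36 between MLC and MG or NoTx, 91 kept the call in the same direction and 17 lost it. Of these, 15 concerned MLC against NoTx after saline.

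With DESeq2 the genes called rose to 665 and 2568 (MLC against MG, saline and seizure), 669 and 2827 (MLC against NoTx), 104 and 670 (MG against NoTx), 320, 139 and 229 (seizure against saline in MG, MLC and NoTx) and 145 (interaction). It called 4 members (Msr1, Cd36, Stab1, Colec12) in MLC against MG after seizure and 1 member in MG against NoTx after seizure (Cd36) and in each seizure comparison (Marco). A fit of only the groups compared called 872, 502, 499 and 606 genes in the 4 MLC comparisons, 2 and 0 in MG against NoTx, and 0 in MG and NoTx between seizure and saline. Without the low-count filter 18, 23, 16 and 6 genes were called in MG against NoTx (saline, seizure), MG and MLC between seizure and saline, and 1 member (Msr1) remained in MLC against MG and 0 in MLC against NoTx after saline. RLE scaling left 1 member, Cd36, in the latter. Leaving out the 11b libraries gave 1 gene in MLC between seizure and saline. Leaving out the low-complexity libraries gave 618 genes in MLC against MG and 30 in MG against NoTx after seizure, and 0 in MG between seizure and saline.

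Same-numbered libraries deviated together weakly or not at all (r from -0.0638 to 0.134). In MG and MLC after seizure the numbers do not follow the codes in the library names. MG replicate 4 and MLC replicate 5 share a code (r = 0.159), as do MG replicate 3 and MLC replicate 4 (r = -0.0194). With 2 NoTx saline libraries, deviations from their mean mirror each other, so r there cannot test pairing. Whether libraries are paired thus remains unknown, and the block below uses the same numbers. A replicate block called 745 genes in MLC against NoTx after seizure, 3 and 7 in MG against NoTx (saline, seizure) and 7 in NoTx between seizure and saline. Under the block 0 members were called in MLC against NoTx after saline (adjusted p from edgeR of 0.0792 for Msr1 and 0.0901 for Cd36), and it changed no other member call.

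Of 1173 member refits 142 changed sign, 0 of them of a called difference. Scarb2 in MLC against MG after seizure became 0.1674 (DESeq2), 0.1679 (RLE), 0.0798 (no filter), 0.1069 (only the groups compared), 0.04 (block) and 0.4137 (without low-complexity libraries). Cd68 there became 0.0119 with DESeq2 and RLE and 0.372 without those libraries, and Msr1 in MLC between seizure and saline became 0.3675 (block) and 0.0598 (without those libraries).

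With each library left out in turn, genes called ranged from 181 to 227 and 776 to 1117 (MLC against MG, saline and seizure), 79 to 150 and 712 to 1193 (MLC against NoTx), 1 to 17 and 5 to 38 (MG against NoTx), 0 to 13, 0 to 1 and 4 to 19 (seizure against saline in MG, MLC and NoTx). Members called ranged from 1 to 2 in MLC against MG after saline and were 0 in every such refit of MLC against NoTx after saline. Fold changes that changed sign ranged from -0.13 to 0.47 and -0.14 to 0.0921 (Scarb2, MLC against MG, saline and seizure), -0.0384 to 0.30 and -0.29 to 0.0294 (Cd68, likewise), -0.81 to 1.89 (Msr1, MG against NoTx after seizure), -0.17 to 1.08 (Stab1, MLC against NoTx after seizure), -0.24 to 0.0591 (Msr1, MLC between seizure and saline) and -1.04 to 0.10 (Cd36, interaction). Where a refit left a lone NoTx library, it is assumed to vary like the other groups. Of 315 refits of list genes called between MLC and MG, 263 kept the call, 52 lost it and 0 reversed. At 3 counts a library's floor lay between 0.0456 and 0.417 CPM, which limits Marco, Colec12 and Olr1. The causes of these changes were not tested.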
